A study of Mus musculus with 12 samples.

Results

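The 10 genes described here, *Mrc1*, *Cd163*, *Stab1*, *Lyve1*, *Siglec1*, *Pf4*, *F13a1*, *Cbr2*, *Ms4a7* and *Ccr2*, are markers of the macrophages at the borders of the brain and of monocytes. They were chosen by symbol from the 52459 genes of the count tables, in order to tell these cells from microglia, and all 10 were found. RNA came from the cerebellum (Cb) and the forebrain/midbrain (F/M) of male mice that were 4 months old. *Tpp1*-/- homozygotes (T), which carry a targeted disruption of the gene in all cells, were compared with wild-type siblings from heterozygous crosses (N), and each of the groups F/M-N, F/M-T, Cb-N and Cb-T had 3 libraries. *Tpp1* encodes the lysosomal protease tripeptidyl peptidase 1, whose loss causes late infantile neuronal ceroid lipofuscinosis, and these mice are a model of its end stage.

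Border macrophages sit outside the brain tissue proper, around vessels, in the meninges and in the choroid plexus, where they take up proteins, sugars and haemoglobin from fluid and blood. Microglia are the macrophages of the tissue itself, share much of their program with the border cells and normally express less of these marker genes. Monocytes circulate in blood, reach inflamed tissue with the help of the chemokine receptor *Ccr2* and can become macrophages there. Since whole tissue was sequenced, fewer cells of a type and less RNA per cell cannot be told apart, nor can more cells and more RNA.

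Promoter windows, the 250 bases before a transcription start in RefSeq (build GRCm38.p6), were at hand for 8 of the 10 genes, not for *Siglec1* and *Lyve1*. They were searched on both strands for the interferon element GAAANNGAA, the PU.1 site GAGGAAGT and the AP-1 site TGANTCA. *Ms4a7* is shown because it was higher in T in both areas and has an interferon element in each of its windows, and *Pf4* because it holds the PU.1 site. Capitals mark the motifs, and each sequence reads 5′ to 3′ on the strand of its gene.
*Ms4a7*, first start, chr19:11336147-11336396, minus strand, interferon element on the other strand beginning 71 bases before the start: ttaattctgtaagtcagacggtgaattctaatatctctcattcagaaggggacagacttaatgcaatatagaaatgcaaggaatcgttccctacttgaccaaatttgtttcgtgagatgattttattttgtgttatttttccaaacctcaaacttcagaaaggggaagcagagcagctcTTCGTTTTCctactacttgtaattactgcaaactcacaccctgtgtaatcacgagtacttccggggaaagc
*Ms4a7*, second start within the gene, chr19:11334696-11334945, minus strand, interferon element 148 bases and AP-1 site 81 bases before the start, both on the strand of the gene: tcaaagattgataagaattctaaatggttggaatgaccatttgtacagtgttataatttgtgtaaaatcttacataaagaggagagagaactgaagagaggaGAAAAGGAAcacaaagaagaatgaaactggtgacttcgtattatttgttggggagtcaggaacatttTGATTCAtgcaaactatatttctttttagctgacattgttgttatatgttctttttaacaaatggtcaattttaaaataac
*Pf4*, chr5:90772185-90772434, plus strand, PU.1 site on the other strand beginning 10 bases before the start: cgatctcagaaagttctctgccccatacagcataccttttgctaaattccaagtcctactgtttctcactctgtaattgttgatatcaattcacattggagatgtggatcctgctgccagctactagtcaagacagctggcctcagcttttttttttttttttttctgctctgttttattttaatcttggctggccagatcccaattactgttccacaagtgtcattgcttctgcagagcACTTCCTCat

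The interferon element was present in 7.13% of the 32851 mouse promoter windows and in those of 2 of the 8 genes, *Ms4a7* and *Ccr2*. Of the interferon-stimulated genes listed for comparison, 4 of the 6 with a window held it. The PU.1 site was present in 2.44% of all windows and the AP-1 site in 6.75%. Such matches describe letters and not binding, and the windows of *Mrc1*, *Cd163*, *Stab1*, *F13a1* and *Cbr2* held none of these letters.

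The deposited values are read counts per gene, here also given as CPM (read counts scaled to a common library size, with TMM factors). Library totals were 21428379 to 24458189, so that 3 reads, taken here as the limit of detection, were equal to 0.121 to 0.139 CPM, counting error only. *Tpp1* stood at 113 ± 1.17 CPM (SD, n = 3) in Cb-N against 29.7 ± 1.57 in Cb-T, and at 90.2 ± 3.54 CPM in F/M-N against 23.0 ± 1.10 in F/M-T, which fits the labels of all 12 libraries. Genes of neighbouring regions of the brain differed between genotypes in both areas. The 16 Hox genes of the hindbrain and spinal cord had a summed level of 14.3 to 14.9 CPM in Cb-T against 0.371 to 0.596 in Cb-N, and the 10 that could be tested passed the filter on low counts only through Cb-T. The 5 listed genes of the olfactory bulb were lower in F/M-T, with summed levels of 2.40 to 3.11 CPM against 13.1 to 14.0 in F/M-N. These differences are shared by all 3 T libraries of an area, so tissue makeup and genotype cannot be told apart for any result below.

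Per kilobase of exon, the scavenger receptors *Stab1* and *Mrc1* had the highest levels of the 10 genes in the control libraries, and *Ms4a7*, *Ccr2* and *Siglec1* the lowest. In Cb-N, *Stab1* stood at 0.976 ± 0.0402 CPM per kb and *Mrc1* at 0.673 ± 0.0430, followed by *Pf4* at 0.571 ± 0.240 and *Cbr2* at 0.526 ± 0.113. The means of *Mrc1*, *Pf4* and *Cbr2* did not differ beyond the sum of the SDs of neighbours. *Lyve1*, *Cd163* and *F13a1* formed a middle group between 0.274 and 0.296 CPM per kb, within their spread. *Ccr2* at 0.0736 ± 0.0329, *Ms4a7* at 0.0715 ± 0.0174 and *Siglec1* at 0.0530 ± 0.0127 CPM per kb were indistinguishable at the bottom. In Cb-T *Ms4a7* reached 0.263 ± 0.0387 CPM per kb, beside *Cd163* (0.245 ± 0.0598) and *Lyve1* (0.225 ± 0.0870), and *Siglec1* reached 0.196 ± 0.00472. *Ccr2* was then alone at the bottom, at 0.0812 ± 0.0296 CPM per kb. In F/M-N the same 3 genes were lowest, between 0.0554 and 0.0718 CPM per kb. In F/M-T *Ms4a7* (0.156 ± 0.0372) and *Siglec1* (0.137 ± 0.0239) stood above *Ccr2* (0.0696 ± 0.0145 CPM per kb).

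**Figure D1:**
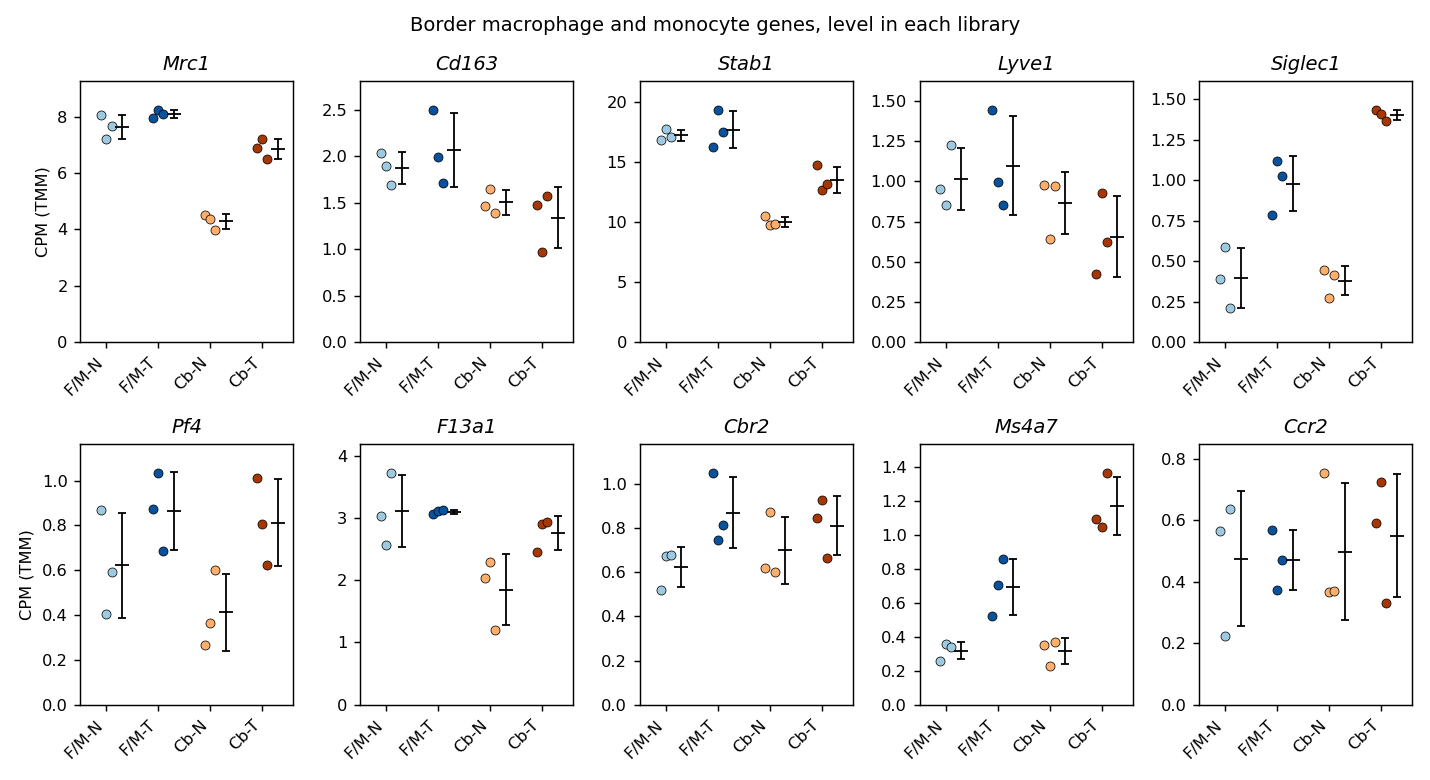
Each panel shows 1 gene, with its level in CPM (linear axis from 0) in the 3 libraries of each group as points and the mean ± SD beside them. *Siglec1* and *Ms4a7* are higher in all T libraries than in all N libraries of the same area, *Mrc1* and *Stab1* in Cb but not in F/M, and *Ccr2* overlaps between genotypes in both.

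The first question was which of these genes changed with the loss of *Tpp1* in the cerebellum. *Siglec1*, *Ms4a7*, *Pf4*, *Mrc1* and *F13a1* rose in Cb-T, the first pair more than 3-fold and the others less than 2-fold, while the receptors *Cd163*, *Lyve1* and *Ccr2* and the enzyme *Cbr2* did not pass the test. A gene was called at an adjusted p below 0.1 (quasi-likelihood test of edgeR, adjusted by Benjamini-Hochberg over all genes) and a fold change of at least 1.5. All 10 genes were tested, 5 were called higher in T and none lower (none lower also at an unadjusted p below 0.05, with DESeq2 and with limma-voom), beside 8.54% of the 16382 genes tested that were called higher in T. Levels in T lay above those in N without overlap for 6 of the 10, beside 27.7% of all genes tested. *Siglec1*, *Ms4a7* and *Pf4* met the filter on low counts in all 3 T libraries and in at most 1 N library, so a higher level in T was needed for them to be tested. With no filter the same 5 genes were called.

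*Siglec1* encodes sialoadhesin (CD169), a sialic acid-binding lectin of macrophages that is known to respond to interferon. It had 10, 6 and 9 reads in the Cb-N libraries, or 0.444, 0.275 and 0.417 CPM, against 34, 35 and 33 reads in Cb-T, or 1.43, 1.41 and 1.37 CPM. The lowest T library held over 3 times the reads of the highest N library. Its difference (T vs. N) on the log2 scale was 1.89 (SE 0.303, 95% interval 1.27 to 2.497), with an adjusted p of 1.14e-06, a 3.70-fold difference. The gene lies on chromosome 2, from 131069220 to 131086765 on the minus strand (GENCODE annotation of GRCm38).

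*Ms4a7* encodes a membrane-spanning protein of the MS4A family that marks border macrophages and monocyte-derived cells, on chromosome 19 (11321039 to 11336146, minus strand). The Cb-N libraries held 8, 5 and 8 reads of it, or 0.355, 0.229 and 0.371 CPM, and the Cb-T libraries 26, 26 and 33 reads, or 1.10, 1.05 and 1.37 CPM. The groups were far apart although the control counts were near the limit of detection. The log2 fold change was 1.87 (SE 0.333, 95% interval 1.20 to 2.54, adjusted p = 7.22e-06).

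Among the secreted proteins, *Pf4*, the chemokine CXCL4 of platelets and border macrophages, had 0.266, 0.367 and 0.603 CPM in Cb-N and 1.01, 0.805 and 0.621 CPM in Cb-T. These values come from 6, 8 and 13 reads against 24, 20 and 15, and the highest control nearly met the lowest T library. On the log2 scale *Pf4* rose by 0.99 (SE 0.354, 95% interval 0.28 to 1.71, adjusted p = 0.0176), and the call was lost without Cb-N replicate 1 (0.75, adjusted p = 0.118). Platelets are the other known source of *Pf4*: of 5 listed platelet genes 2 could be tested and none was called by edgeR, DESeq2 or limma-voom, nor had an unadjusted p below 0.05, and the summed level of the 5 was 5.23 to 5.397 CPM in the Cb-T libraries and 5.27 to 5.89 in the controls. The platelet chemokine *Ppbp* of this list, too low to be tested and named after its values were seen, had a mean of 0.370 CPM in Cb-T and 0.137 in Cb-N, and of 0.314 in F/M-T and 0.133 in F/M-N. The part of platelets in the *Pf4* result was not tested.

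*F13a1*, the A subunit of coagulation factor XIII, a transglutaminase also made by macrophages, had 2.04, 2.29 and 1.21 CPM in Cb-N and 2.45, 2.90 and 2.94 CPM in Cb-T. Replicate 3 of Cb-N was the lowest of the 6 libraries. With a log2 fold change of 0.59 (SE 0.190, 95% interval 0.21 to 0.97, adjusted p = 0.00832) the gene stood at 1.51-fold, just past the limit. It fell under the limit without Cb-N replicate 3 (log2 fold change 0.36, adjusted p = 0.121), without Cb-T replicate 2 (0.56) or 3 (0.54), with DESeq2 (0.58), with RLE size factors (0.58) and in a single fit of all 12 libraries (0.58).

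Of the scavenger receptors, *Mrc1*, the mannose receptor CD206 that binds sugar chains of glycoproteins, had 4.52, 4.36 and 3.99 CPM in Cb-N and 6.87, 7.21 and 6.50 CPM in Cb-T. The groups did not overlap, and the counts behind them, 86 to 102 reads against 157 to 179, gave this gene a narrow interval. The log2 fold change was 0.69 (SE 0.114, 95% interval 0.46 to 0.92, adjusted p = 1.85e-06), and no alternative that tested the gene lost this call. *Mrc1* lies on chromosome 2 (14229392 to 14332057, plus strand).

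*Stab1*, stabilin-1, a receptor for modified lipoproteins and matrix fragments, had 10.5, 9.77 and 9.83 CPM in Cb-N and 14.8, 12.7 and 13.2 CPM in Cb-T. All T libraries were above all N libraries, and the adjusted p was 1.38e-05, but at 1.36-fold (log2 fold change 0.44, SE 0.0823, 95% interval 0.28 to 0.61) the difference was under the limit and the gene was not called. *Stab1* shares 112 of its 10288 exon bases with *Nt5dc2* on the opposite strand. *Nt5dc2* had a log2 fold change of 0.45 (adjusted p = 0.000525) at 5.93 CPM in Cb-N and 8.03 in Cb-T, and its part in the value of *Stab1* was not tested.

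The other receptors and the enzyme overlapped between genotypes in Cb. *Cd163*, which takes up haemoglobin bound to haptoglobin, had 1.46, 1.65 and 1.39 CPM in Cb-N and 1.48, 0.966 and 1.57 in Cb-T, and the log2 difference was -0.16 (95% interval -0.62 to 0.30). *Lyve1*, a hyaluronan receptor of lymphatic vessels and of 1 subset of border macrophages, had 0.976, 0.642 and 0.974 CPM in Cb-N and 0.422, 0.926 and 0.621 in Cb-T. Its log2 fold change was -0.37 with an interval of -1.01 to 0.26, so the data leave room for a fall by more than the fold limit and bound any rise below it. Of 4 genes of lymphatic endothelium, 3 could be tested in Cb, and the 1 called was the glycoprotein *Pdpn*, which is also made by other cells, at a log2 fold change of 0.63. Named after their values were seen, the transcription factor *Prox1* had -0.39 (edgeR adjusted p = 1.034e-12), short of the fold limit, and the receptor *Flt4* 0.02. The list summed to 81.6 to 85.4 CPM in Cb-T and 98.9 to 99.9 in Cb-N. *Prox1* alone carried this fall, with 85.1 ± 1.24 CPM in Cb-N and 64.2 ± 1.17 in Cb-T, whereas *Flt4* had 5.10 and 5.13 CPM. The sum thus describes mainly *Prox1* and not the list, and the cells that held *Prox1* RNA were not identified. The list's part in the *Lyve1* values was not tested. *Cbr2*, a carbonyl reductase of border macrophages, ranged from 0.603 to 0.871 CPM in the controls and from 0.663 to 0.926 CPM in T, with an interval of -0.38 to 0.84 around 0.23.

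*Ccr2* was low in all 12 libraries, at 5 to 18 reads. Cb-N had 0.754, 0.367 and 0.371 CPM and Cb-T 0.590, 0.725 and 0.331, and the highest of the 6 was a control. The log2 fold change was 0.15 (SE 0.379, 95% interval -0.62 to 0.91, adjusted p = 0.771), an interval that includes 1.5-fold changes in both directions, so a difference of that size was not detectable at this depth. Of the chemokines that bind the receptor, *Ccl12* was the only one of 3 with enough reads for a test. It had 0.137 ± 0.00314 CPM in Cb-N, at the limit of detection, and 0.758 ± 0.0995 in Cb-T, and 0.308 ± 0.202 CPM in F/M-N and 0.992 ± 0.121 in F/M-T. It was called higher in T in both areas, but it passed the filter on low counts through the T libraries, so that no fold is given.

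**Figure D2:**
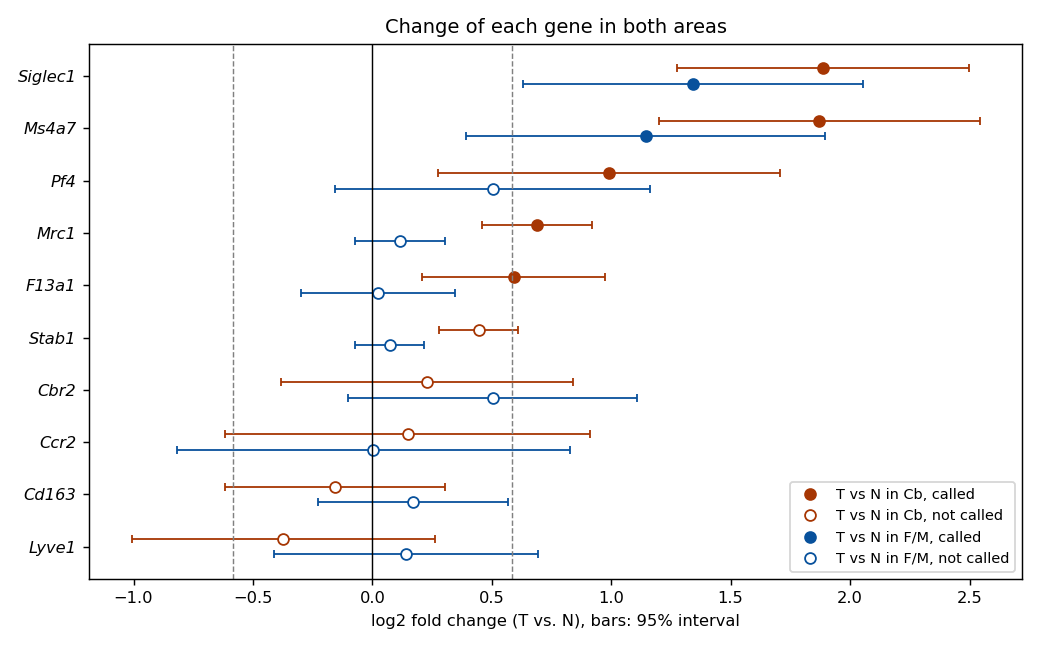
Points are the T vs. N log2 fold changes for the 10 genes in Cb and F/M with 95% intervals, filled where the gene was called, and dashed lines mark the 1.5-fold limit in each direction. *Siglec1* and *Ms4a7* are called in both areas, *Pf4*, *Mrc1* and *F13a1* in Cb only, and the intervals of *Ccr2* span 0 in both.

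In forebrain/midbrain the same comparison called fewer of the genes. *Siglec1* and *Ms4a7* rose again, by more than 2-fold, and the other 8 did not pass the test. Thus 2 of 10 genes were called higher in T and none lower (none lower also at an unadjusted p below 0.05, with DESeq2 and with limma-voom), beside 2.63% of the 16665 genes tested. Levels in T lay above those in N without overlap for 3 of the 10 (*Siglec1*, *Ms4a7* and *Cbr2*), beside 13.3% of all genes tested. *Siglec1*, *Ms4a7* and *Pf4* again met the count filter in all 3 T but not in all 3 N libraries, and the same 2 genes were called with no filter.

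*Siglec1* had 0.390, 0.585 and 0.212 CPM in F/M-N, from 9, 13 and 5 reads, and 0.788, 1.12 and 1.03 CPM in F/M-T, from 18, 27 and 24 reads. No T library overlapped the controls, which themselves spread more than in Cb. The log2 fold change was 1.34 (SE 0.341, 95% interval 0.63 to 2.06, adjusted p = 0.00803). *Ms4a7* had 0.260, 0.360 and 0.339 CPM in F/M-N (6, 8 and 8 reads) and 0.525, 0.704 and 0.856 CPM in F/M-T (12, 17 and 20 reads). Its log2 fold change of 1.14 (SE 0.360, 95% interval 0.39 to 1.90, adjusted p = 0.0285) was not called without F/M-N replicate 1 (1.02, adjusted p = 0.111) or without F/M-T replicate 3 (0.97, adjusted p = 0.139). DESeq2 gave neither gene an adjusted p in F/M because of their low counts. Without its filter on low counts, an alternative added after the data were seen, the DESeq2 adjusted p was 0.0308 for *Siglec1* and 0.132 for *Ms4a7*, which ended the call of *Ms4a7* in F/M.

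*Cbr2* had 0.520, 0.675 and 0.677 CPM in F/M-N and 1.05, 0.745 and 0.813 CPM in F/M-T, without overlap, but its log2 fold change of 0.50 (95% interval -0.10 to 1.11) had an adjusted p of 0.239. *Pf4* overlapped, with 0.867, 0.405 and 0.593 CPM in F/M-N and 0.875, 1.03 and 0.685 CPM in F/M-T, and its log2 difference of 0.50 had an adjusted p of 0.282. The most abundant genes gave the narrowest bounds. *Stab1*, at 16.9 to 17.8 CPM in the controls and 16.3 to 19.4 in T, had an interval of -0.07 to 0.22 around 0.07, and *Mrc1*, at 7.20 to 8.07 and 7.97 to 8.24 CPM, one of -0.07 to 0.30 around 0.12. For *F13a1* the interval was -0.30 to 0.35 around 0.02, with 3.04, 2.57 and 3.72 CPM in F/M-N and 3.06, 3.10 and 3.12 CPM in F/M-T. All 3 of these intervals lie inside the 1.5-fold limit. *Cd163* had 1.69 to 2.04 CPM in the F/M controls and 1.71 to 2.495 in T, *Lyve1* 0.855 to 1.23 and 0.856 to 1.44, and *Ccr2* 0.225 to 0.635 and 0.373 to 0.569. The log2 fold changes of these last 3 genes were 0.17, 0.14 and 0.00, and each interval reached from below 0 to near or above the fold limit.

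Whether the change differed between the areas was asked with an interaction term for area and genotype, in a model of the 12 libraries together. *Mrc1* was the only one of the 10 genes called, beside 6.41% of the 17482 genes tested that were called with a higher change in Cb. Its change was larger in Cb by 0.59 on the log2 scale (SE 0.138, 95% interval 0.31 to 0.88, adjusted p = 0.00188), or 1.51-fold, which is at the limit. The call was lost with RLE size factors (0.57), with DESeq2 (0.57) and with a mean count of at least 50 (0.55). It was also lost without F/M-N 1, F/M-T 1, Cb-N 3 or any one of the Cb-T libraries, at 0.54 to 0.58. *Stab1* had a difference of 0.39 (SE 0.108, adjusted p = 0.00797), under the fold limit, and *F13a1* one of 0.59 (SE 0.254, adjusted p = 0.101). With the replicate block and with no filter *F13a1* was called as well. For *Siglec1* (0.56, 95% interval -0.42 to 1.55) and *Ms4a7* (0.75, 95% interval -0.30 to 1.79) the larger value in Cb was within the error. *Pf4*, called in Cb only, had a difference between areas of 0.51 (95% interval -0.50 to 1.51, adjusted p = 0.525), which did not pass the test.

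The control areas were compared in the same way. *Mrc1*, *Stab1* and *F13a1* were lower in Cb-N than in F/M-N, with log2 fold changes of -0.83 (SE 0.103, adjusted p = 2.03e-08), -0.78 (SE 0.0788, adjusted p = 3.02e-10) and -0.75 (SE 0.188, adjusted p = 0.000696). The call of *F13a1* was lost without Cb-N 3, at -0.53 (adjusted p = 0.0127), under the fold limit. These were 3 of the 10 genes called lower in Cb-N, beside 23.2% of all genes tested, so that the share of the 10 was near that of all genes. For *Siglec1*, *Ms4a7* and *Ccr2* the control areas had nearly equal means, at 0.379 and 0.396, 0.318 and 0.320, and 0.497 and 0.475 CPM in Cb-N and F/M-N, with SEs of the log2 difference near 0.4. In Cb-T *Mrc1* (6.50 to 7.21 CPM) and *F13a1* (2.45 to 2.94 CPM) came nearer to the F/M-N levels of 7.20 to 8.07 and 2.57 to 3.72 CPM.

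To set the genes beside microglia, their summed level was divided by that of 12 genes of homeostatic microglia in the same library. The 10 genes summed to 20.8 ± 1.10 CPM in Cb-N and 29.9 ± 0.928 in Cb-T, while the microglia genes summed to 153 ± 4.21 and 396 ± 8.87 CPM. The ratio was thus 12.5, 13.8 and 14.6% in the Cb-N libraries and 7.20, 7.496 and 7.99% in the Cb-T libraries, without overlap. In F/M it was 7.38 to 7.48% in the controls and 6.18 to 6.61% in T, again lower in every T library. *Mrc1* alone amounted to 2.53 to 3.01% of the microglia sum in the Cb controls but 1.61 to 1.82% in T, although its level rose. The summed share of *Siglec1* and *Ms4a7*, a pair chosen because their fold changes were the largest of the 10, is given as a description only and went from 0.334 to 0.532% in the Cb controls up to 0.621 to 0.675% in Cb-T, and from 0.121 to 0.215% up to 0.235 to 0.331% in F/M. The sums are on the CPM scale, are dominated by the genes with the most reads and carry no test.

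**Figure D3:**
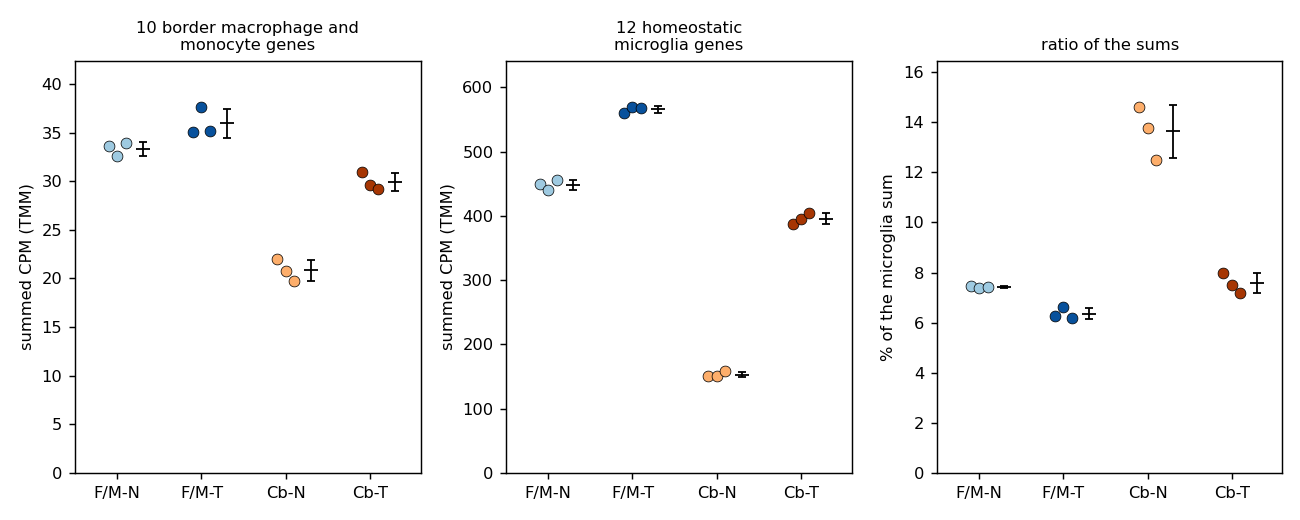
Summed CPM of the 10 border macrophage and monocyte genes (left) and of 12 homeostatic microglia genes (middle), and the first as a percentage of the second (right), in each of the 12 libraries with mean ± SD. The ratio is 12.5 to 14.6% in Cb-N but 7.20 to 7.99% in Cb-T, and 7.38 to 7.48% in F/M-N but 6.18 to 6.61% in F/M-T.

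The medians of the microglia, pan-myeloid and interferon-stimulated lists lay above that of these 10 genes, and that of the other border macrophage genes below it. The median of the other monocyte genes was also lower, but it rests on 3 genes in Cb and 2 in F/M. For the 10 genes the median log2 fold change reached 0.52 in Cb and 0.16 in F/M, beside 0.012 and 0.0078 over all genes tested. For the 12 genes of homeostatic microglia it was 1.10 in Cb, with 8 called higher, and 0.32 in F/M, with 2 called higher. Among these, the fractalkine receptor *Cx3cr1* had a log2 fold change of 1.52 in Cb and 0.34 in F/M, and the purinergic receptor *P2ry12* 0.50 and -0.01. All 12 genes of disease-associated microglia were called higher in Cb (median 2.96) and 8 in F/M (median 1.25). Of these, *Cst7*, *Itgax* and *Clec7a* had means of 0.153, 0.366 and 0.332 CPM in Cb-N, and 0.133, 0.173 and 0.19 in F/M-N. Such levels lie under the filter on low counts, which these genes passed only through the T libraries. The counts and medians of this list therefore include genes that could be tested only because T was higher. Of 8 pan-myeloid genes, which border macrophages, monocytes and microglia share, 8 were called higher in Cb (median 1.89) and 6 in F/M (median 0.91), with the lysosomal protein *Cd68* at 3.13 and 1.36. Interferon-stimulated genes, 9 of 10 of which were called higher in Cb (median 1.08) and 10 of 10 in F/M (median 1.87), include no member of the 10, and their part in the *Siglec1* result was not tested.

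Further markers of the same cells were tested from lists. Of 14 other border macrophage genes, 7 had enough reads for a test in Cb, where 1 was called higher and 3 had an unadjusted p below 0.05 with a higher level in T, and 8 in F/M, where none was called by edgeR, DESeq2 or limma-voom and 3 had an unadjusted p below 0.05. The gene called was *Hpgd*, the prostaglandin-degrading dehydrogenase, which rose from 7.21 ± 0.506 to 15.8 ± 0.689 CPM in Cb (log2 fold change 1.15, SE 0.0844, adjusted p = 2.15e-15) and had a log2 fold change of 0.40 in F/M, under the fold limit. The median of this list was 0.27 in Cb and 0.10 in F/M, and its genes summed to 72.2 to 74.8 CPM (Cb-N), 88.5 to 93.2 CPM (Cb-T), 48.8 to 51.3 CPM (F/M-N) and 53.5 to 55.04 CPM (F/M-T). Of 10 other monocyte genes, 3 could be tested in Cb and 2 in F/M, and *Spn* (CD43, also on lymphocytes) was the only one called, in Cb, with 0.245 ± 0.190 CPM in Cb-N and 0.608 ± 0.234 in Cb-T. Its mean in Cb-N lies under the filter on low counts, which it passed only with the help of Cb-T, so no fold is given. Their median was 0.035 in Cb and -0.039 in F/M. *Ly6c2*, the surface marker of inflammatory monocytes, named after its values were seen, could not be tested, with 0.0155 ± 0.0268 CPM in Cb-N and 0.206 ± 0.110 in Cb-T. Its F/M levels were 0.0857 ± 0.0742 CPM in F/M-N and 0.171 ± 0.00479 in F/M-T, at or near the level of 3 reads. Of 5 neutrophil and 8 lymphocyte genes, 3 and 0 could be tested in Cb and 1 and 1 in F/M, and none was called by edgeR, DESeq2 or limma-voom or had an unadjusted p below 0.05. The lymphocyte genes nevertheless summed to 0.829 to 1.94 CPM in Cb-T against 0.596 to 0.696 in Cb-N, higher in every T library. In F/M they summed to 8.94 to 10.1 CPM in T and 8.24 to 9.27 in N, ranges that did not meet without TMM (T from 8.96, N up to 8.86). *Cd4*, named after its values were seen, carried the F/M sums, with 8.56 ± 0.680 CPM in F/M-T and 7.87 ± 0.753 in F/M-N. Its means were 0.385 CPM in Cb-T and 0.0457 in Cb-N. No other gene of the list had a mean above 0.331 CPM in F/M, so the F/M sums describe *Cd4* and not the list. The neutrophil genes ranged in their sum from 2.74 to 3.11 CPM in the T libraries of Cb and from 3.24 to 3.71 in the controls, ranges that met without TMM (T up to 3.25 and N from 3.24). In F/M the sums were 0.984 to 1.27 CPM in T and 1.40 to 1.60 in N. The part of both lists in the values of the 10 genes was not tested.

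*Ms4a7* belongs to a family of which 18 members are listed in the tables, most of them without enough reads. In Cb 4 could be tested, of which *Ms4a6c*, *Ms4a6d* and *Ms4a7*, with means of 0.243, 0.257 and 0.318 CPM in Cb-N, passed the filter on low counts only through Cb-T, so nothing is read from their common direction. In Cb-T their means were 1.17 to 1.61 CPM. *Ms4a6b* had 0.561 ± 0.208 CPM in Cb-N and 1.28 ± 0.485 in Cb-T (log2 fold change 1.19, SE 0.313). In F/M, where *Ms4a7* met the filter in the T libraries only, *Ms4a6c* was called at a log2 fold change of 1.44 (SE 0.294, adjusted p = 0.00145), *Ms4a6b* (0.49) and *Ms4a6d* (0.59) were not, and *Ms4a15*, named after its values were seen, was called lower, with 1.80 ± 0.276 CPM in F/M-N and 0.0569 ± 0.0249 in F/M-T, below the limit of detection. Reads of the closely related *Ms4a6* genes could be divided between them by the counting and are uncertain for each copy.

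*Cd163* and *Hmox1* act in sequence in the handling of haemoglobin, the first as receptor and the second as the haem-degrading oxygenase. *Hmox1* rose in both areas, from 3.54 ± 0.196 to 9.90 ± 1.47 CPM in Cb (log2 fold change 1.5, SE 0.119, adjusted p = 1.93e-14) and from 4.06 ± 0.219 to 7.24 ± 0.987 CPM in F/M (0.86, SE 0.122, adjusted p = 3.69e-05), while *Cd163* was called in neither. Red blood cell genes moved in the same direction, with summed levels of 89.3 to 98.9 CPM in the Cb controls and 122 to 132 CPM in T, and 1 of 5, *Alas2*, was called there. In F/M they summed to 75.03 to 84.4 CPM in the controls and 85.8 to 96.7 in T, and none of the 5 was called by edgeR, DESeq2 or limma-voom, though all 5 had an unadjusted p below 0.05. Their part in the values of the 10 genes was not tested.

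Genes of the tissues in which border macrophages lie stayed under the fold limit. None of 8 choroid plexus genes, 8 meningeal and perivascular fibroblast genes and 8 endothelial genes was called in either area by edgeR, DESeq2 or limma-voom. At an unadjusted p below 0.05, 2 choroid plexus, 4 fibroblast and 6 endothelial genes were higher in Cb-T and 4 choroid plexus genes lower, and in F/M-T 3, 4 and 3 were higher and 1 choroid plexus gene lower. Their median log2 fold changes were -0.07, 0.16 and 0.24 in Cb and 0.12, 0.18 and 0.07 in F/M. Summed levels of the fibroblast genes were nevertheless higher in every T library, at 284 to 290 CPM in Cb-T against 251 to 261 in Cb-N, and at 209 to 211 CPM in F/M-T against 183 to 198 in F/M-N. Those of the choroid plexus overlapped in Cb (2172 to 2310 CPM in Cb-T and 2280 to 2424 in Cb-N) and were higher in F/M-T (832 to 877 CPM) than in F/M-N (610 to 649). *Ttr*, the abundant transthyretin gene, carried this difference, with 774 ± 23.3 CPM in F/M-T and 555 ± 20.6 in F/M-N, whereas *Kcne2* and *Kl* had log2 fold changes of -0.42 and -0.04, all 3 named after their values were seen. The endothelial genes summed to 302 to 308 CPM in Cb-T against 268 to 283 in Cb-N, and overlapped in F/M (251 to 263 CPM in T and 240 to 251 in N). Without TMM the F/M ranges did not meet (T from 251.3 and N up to 240.2 CPM). The part of vessels, and of meninges and choroid plexus carried along at dissection, in the values of the 10 genes was not tested.

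**Figure D4:**
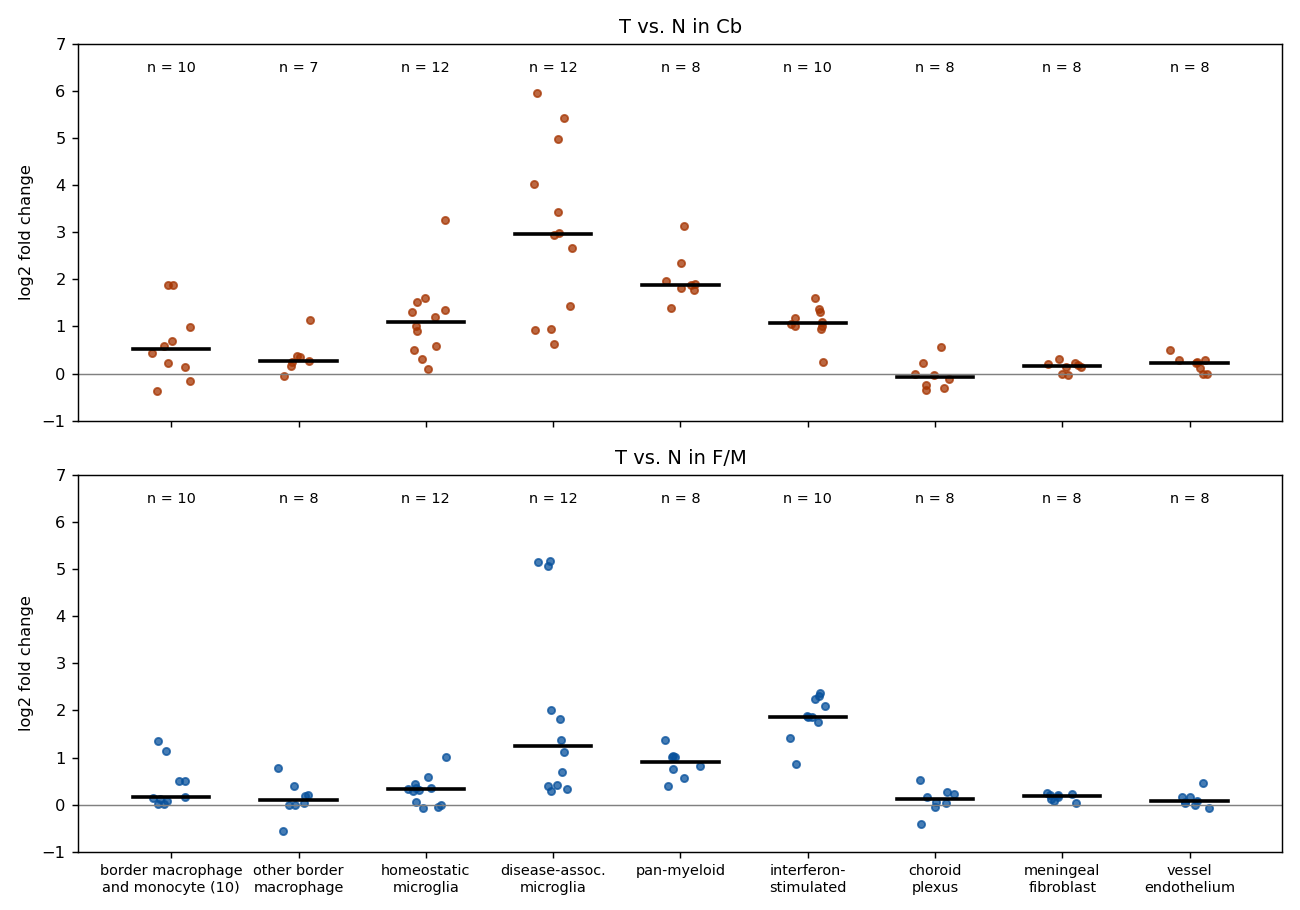
Each point is the log2 fold change, T against N, of 1 gene that could be tested, with the list on the horizontal axis, Cb above and F/M below, and a black bar at the median. The median of the 10 border macrophage and monocyte genes (0.52 in Cb, 0.16 in F/M) lies below those of the homeostatic and disease-associated microglia and pan-myeloid lists in both areas.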

How the data were processed

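The authors prepared stranded, poly(A)-selected libraries from the Cb and F/M of the same 3 mice per genotype, sequenced single-end reads of 50 bases, aligned them to GRCm38 with STAR and deposited raw read counts per gene from featureCounts 1.26.1, without normalization. The submitters' processing notes name STAR 2.5.1b and also edgeR 3.18.1 and limma 3.32.10. The strand setting of the counting is not given in the sources used here, so reads of overlapping genes on opposite strands (*Stab1* with *Nt5dc2*, *F13a1* with an antisense gene over 74 exon bases) cannot be assigned with certainty.

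From these counts, levels were computed as CPM with TMM factors over all 12 libraries and given as mean ± SD. Tests used R 4.3.3 and edgeR 4.0.16 (filterByExpr with min.count 10 and min.total.count 15, TMM, glmQLFit and glmQLFTest), 1 fit for the 6 libraries of each area, and 1 fit of all 12 for the interaction and for Cb-N against F/M-N, with Benjamini-Hochberg adjustment over all genes kept. Calls needed an adjusted p below 0.1 and a 1.5-fold change, the limits of the study. The SE is the absolute log2 fold change divided by the square root of F, and 95% intervals use the median degrees of freedom of each fit. The code was tested on simulated counts. Exon lengths and positions came from GENCODE for GRCm38.

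Alternatives were DESeq2 1.42.0, limma-voom (limma 3.58.1), RLE size factors, no filter, a mean count of at least 50, a replicate block, an FDR of 0.05, no fold limit, a single fit of all libraries, a fit of the N libraries alone, CPM without TMM and each library left out in turn. Calls shared by at least 2 of these tools (edgeR, DESeq2, limma-voom), and DESeq2 without independent filtering, were chosen after seeing the data.

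The members and lists were chosen with earlier results of these data known, and no list was tested as a set. All 10 genes are named. Of each other list the called genes with the largest change in Cb, at most 4, may be named, and any of the homeostatic microglia list. The chi-square per degree of freedom between replicates was 1.27 to 3.37 over 12 pairs, so each library was counted as 1 sample. The labels do not link library numbers to mice, so p-values measure the spread between these libraries. The interaction and the comparison of Cb-N with F/M-N treat both areas of a mouse as independent.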

Additional observations from a re-analysis of the deposited data

Results flagged for a closer look

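The change of *Mrc1* (T vs. N) exceeded in Cb its change in F/M by 0.59 on the log2 scale (edgeR's interaction test, adjusted p = 0.00188), with 4.29 ± 0.274 CPM in Cb-N and 6.86 ± 0.351 in Cb-T against 7.64 ± 0.433 in F/M-N and 8.10 ± 0.135 in F/M-T. *Stab1* showed a difference of 0.39 in the same direction (adjusted p = 0.00797), with 10.04 ± 0.414 and 13.6 ± 1.07 CPM in Cb-N and Cb-T against 17.3 ± 0.466 and 17.7 ± 1.56 CPM in F/M-N and F/M-T. Groups of 3 libraries were not searched for outlying samples.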

How the results depend on the processing

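Over the alternatives, 735 values of the 10 genes were recomputed: 680 kept their direction and side of the limits, 22 lost a call, 8 gained one and 25 changed sign, none of them called in the fits reported. The cause of these changes was not tested unless named. In Cb the count of 5 called genes was 4 to 6 elsewhere, and 2 with a mean count of at least 50, where only 3 of the genes could be tested. In F/M the count of 2 became 0 at that minimum, 1 with DESeq2 without independent filtering (*Siglec1*) and 1 to 2 with each library left out, and DESeq2 with filtering gave no count. For the interaction, the 1 call (*Mrc1*) became 0 with DESeq2, with and without independent filtering, with RLE size factors and at the mean count of 50, and 2 with no filter (*F13a1*, *Mrc1*), with the replicate block (*F13a1*, *Mrc1*) and with no fold limit (*Mrc1*, *Stab1*). Leaving out libraries gave 0 to 2, and 0 without F/M-N 1, F/M-T 1, Cb-N 3 or any Cb-T library.

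With the replicate block the counts were 5 in Cb, 2 in F/M and 3 for Cb-N against F/M-N, so that it changed a call only in the interaction. Deviations from the group means correlated between N and T libraries of the same number at -0.0463 to 0.0294 (Cb) and -0.00172 to 0.172 (F/M) over 13546 genes, and those of the areas at 0.00128 to 0.169, so the numbers were not taken as pairs. *Pf4* was called in Cb-N against F/M-N without F/M-N 2 or Cb-N 3, and *F13a1* was not without Cb-N 3.

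The log2 values that changed sign with 1 library left out ranged for *Ccr2* from -0.11 to 0.58 in Cb, from -0.32 to 0.27 in F/M, from -0.0992 to 0.60 in the interaction and from -0.37 to 0.33 in Cb-N against F/M-N. The ranges were -0.29 to 0.0375 for *Cd163* in Cb, and -0.0957 to 0.18 for *F13a1* and -0.10 to 0.31 for *Lyve1* in F/M. In Cb-N against F/M-N they were -0.13 to 0.18 for *Ms4a7*, -0.36 to 0.33 for *Siglec1* and -0.0262 to 0.25 for *Cbr2*. A single fit of all 12 libraries gave -0.00936 for *F13a1* and -0.0283 for *Ccr2* in F/M, and limma-voom gave 0.0351 for *Siglec1* between the control areas. Without TMM, the 10 genes summed to 32.1 CPM in F/M-N and 31.1 in Cb-T, and the microglia genes to 431 and 412 CPM. Depth limits *Ccr2*, *Pf4*, *Ms4a7*, *Siglec1*, *Lyve1* and *Cbr2*, with 5 to 35 reads per library. The differences in Hox genes in Cb and in olfactory bulb genes in both areas are shared by all libraries of a group, so no library could be left out for them.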
